A study of Schmidtea mediterranea with 40 samples.

Results

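The 200 most constant transcripts of the planarian *Schmidtea mediterranea* across embryogenesis and adult life are described here. They were chosen by their measured values. Among the 35262 transcripts listed, 2474 averaged at least 10 RPKM (reads scaled by transcript length and by library size) in each of the 10 groups sampled and are called eligible. The 200 eligible transcripts with the lowest standard deviation (SD) of log2(RPKM + 0.1) over the 40 libraries are the members. The SD, and every other summary of level over these libraries, was therefore used in the choice or is bound to it, and is given as a description.

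Transcripts held at a steady level in all cells are often called housekeeping transcripts, and they serve as references against which the amounts of other transcripts are read. A planarian embryo is a demanding test of such steadiness. It develops among yolk cells inside an egg capsule, first builds a temporary pharynx and gut with which it swallows yolk, and later discards these while the definitive organs form from cycling cells. In adults, the stem cells called neoblasts replace the differentiated cells. A level in bulk RNA is an average over all of these cell types, so fewer cells of a type and less RNA per cell cannot be told apart.

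Single-end RNA-Seq libraries were made from 4 samples of each group. The groups were yolk (Y), taken from capsules 8 days old with no visible embryo; single embryos of S2, S3, S4, S5, S6, S7 and S8, taken 2, 3, 4, 6, 9, 10 and 14 days after capsule deposition; intact SX adults, virgin and sexually mature; and intact C4 adults of the clonal asexual line CIW-4. No treatment or mutation is named in the labels. SX libraries were sequenced on a lane and instrument of their own, so biotype and lane cannot be told apart. The other libraries were pooled 9 to a lane, with a replicate of each other group. The libraries held 5732627 to 17479851 reads on transcripts. The primitive ectoderm marker gelsolin-like (SMED30014940) measured 69.6 to 394 RPKM in 3 S2 libraries but 1.501 RPKM in S2 replicate 4, within the 1.42 to 5.85 RPKM of the Y libraries. In the same library netrin-like (SMED30023593), a marker of the temporary pharynx, measured 7.70 RPKM, above the 0 to 3.42 RPKM of the Y libraries. CTSL-like (SMED30023322), a marker of the embryonic gut, measured 1.73 RPKM in S2 replicate 4, within the 0.563 to 11.8 RPKM of Y. S2 replicate 3, at 8.64 RPKM, and S3 replicate 3, at 2.33 RPKM, lay within that range too. S2 replicate 4 is left out as an alternative where S2 is compared.

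No member has a gene name here. The copies of the study's tables used here, of which several are shortened, list 5058 transcripts, of which 60 were eligible and 0 were members, and descriptions of homologs are given there for 38 eligible transcripts and 0 members. Members are therefore called by their transcript identifiers, without a role, and no sequence of a member was in the sources used here.

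The member with the lowest spread was SMED30019896, with an SD of 0.17 on the log2 scale and levels between 71.4 and 125 RPKM in the 40 libraries. It measured 71.4, 104, 74.7 and 81.0 RPKM in the Y libraries, then 76.6, 82.9, 107 and 90.6 RPKM at S2, 104, 97.5, 88.6 and 85.0 at S3, 112, 97.8, 96.5 and 85.5 at S4, 96.0, 117, 97.1 and 101 at S5, 88.8, 98.1, 100.04 and 99.9 at S6, 88.6, 93.0, 89.1 and 87.1 at S7, and 84.5, 88.9, 89.2 and 90.4 at S8. In adults it measured 86.0, 80.0, 83.7 and 84.7 RPKM in SX and 108, 125, 93.5 and 89.4 RPKM in C4. The libraries of every embryonic stage overlapped those of yolk, and the highest library was in C4. Its group means differed by 1.26-fold at most.

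SMED30010090 followed with an SD of 0.17. Its mean RPKM was 45.0 ± 7.54 (Y), 42.9 ± 5.57 (S2), 48.5 ± 2.58 (S3), 40.3 ± 3.67 (S4), 46.0 ± 5.07 (S5), 45.9 ± 1.497 (S6), 47.4 ± 1.34 (S7), 45.6 ± 4.01 (S8), 39.8 ± 5.71 (SX) and 42.2 ± 7.55 (C4), each as mean ± SD with n = 4. Its group means lay within 1.22-fold of each other, the narrowest range on the log2 scale among the members (0.30). SMED30002257, at 13.8 RPKM on average and an SD of 0.19, was sampled by as few as 33 reads in a library. The other members among the 10 with the lowest SD were SMED30011670 (0.20), SMED30010394 (0.20), SMED30012557 (0.21), SMED30015434 (0.21), SMED30027683 (0.22), SMED30020333 (0.22) and SMED30022597 (0.22), with mean levels of 12.2 to 44.1 RPKM.

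**Figure D1:**
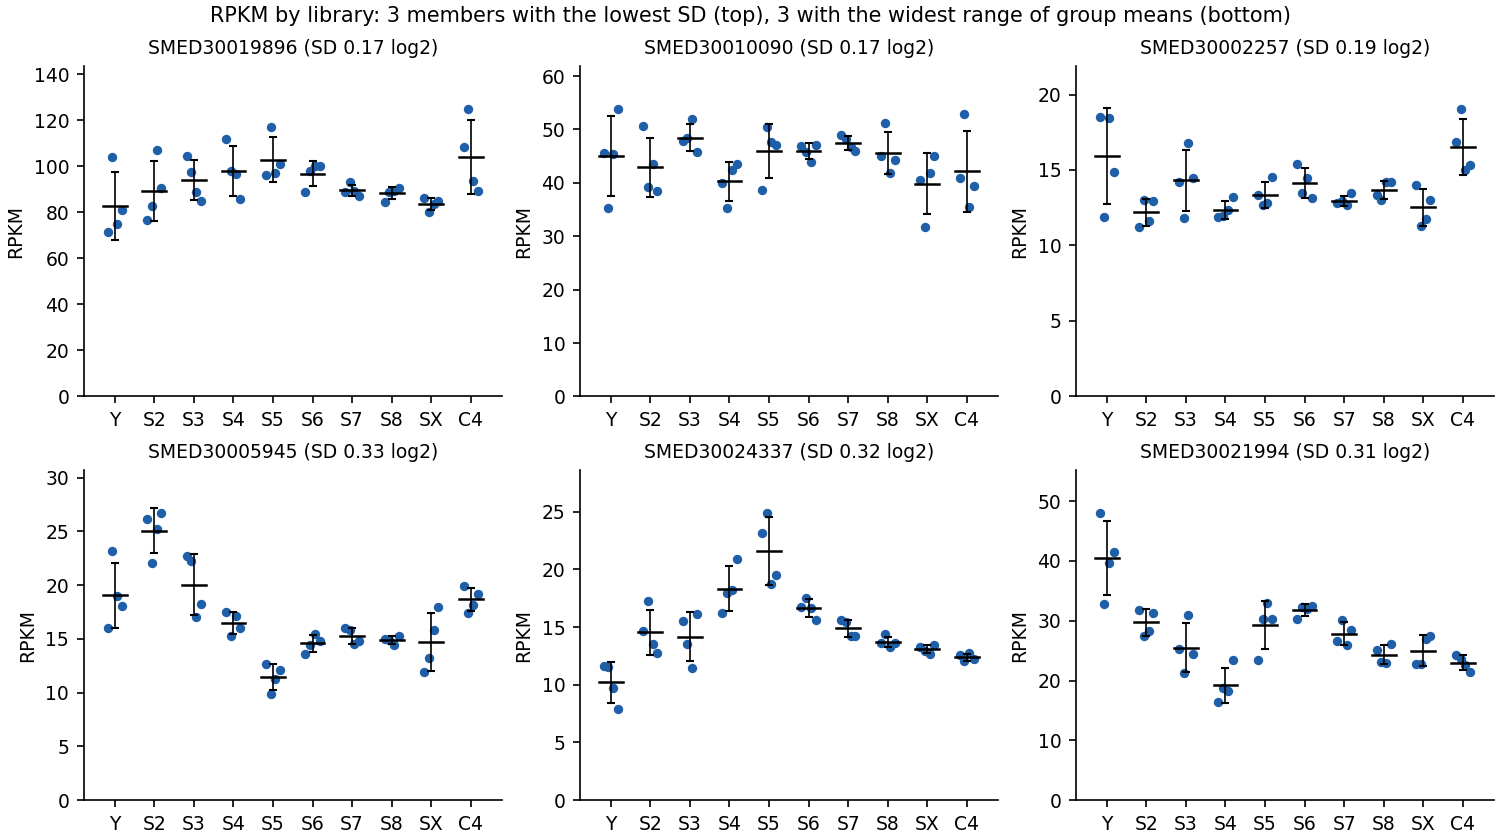
RPKM (linear axis from 0) of 6 members in each library, by group; points are libraries, bars the mean and whiskers the SD of 4. The 3 members in the upper row have the lowest SD, and the highest library of SMED30019896 is 125 RPKM in C4; the 3 in the lower row have the widest range of group means, as in SMED30005945 with its highest mean in S2 and lowest in S5.

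Member SDs ran from 0.17 to 0.34 on the log2 scale, with a median of 0.30. The median was 0.63 over all eligible transcripts and 1.21 over the 33794 transcripts whose RPKM summed to at least 1. As a coefficient of variation of RPKM, the median was 21.2% in members and 45.6% in eligible transcripts. The threshold fell in a continuous distribution. Just inside were SMED30004469, SMED30019007 and SMED30010976, with SDs of 0.3386, 0.3387 and 0.3391, and just outside were SMED30031389, SMED30022128 and SMED30003960, with SDs of 0.3391, 0.3392 and 0.3396.

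Members were lower in level than eligible transcripts as a whole. Their mean level had a median of 23.3 RPKM, against 41.7 RPKM in all eligible transcripts. Of the 619 eligible transcripts with the lowest mean, 17.6% were members, and of the 619 with the highest mean 2.10%. The members with the highest mean log2 level were SMED30034766 at 325.8 RPKM, SMED30028449 at 164 RPKM and SMED30017501 at 159 RPKM. The lowest were SMED30027760 at 11.3 RPKM, SMED30012557 at 12.2 RPKM and SMED30024574 at 12.4 RPKM. No member averaged more than 325.8 RPKM, whereas eligible transcripts reached 301610 RPKM on average.

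**Figure D2:**
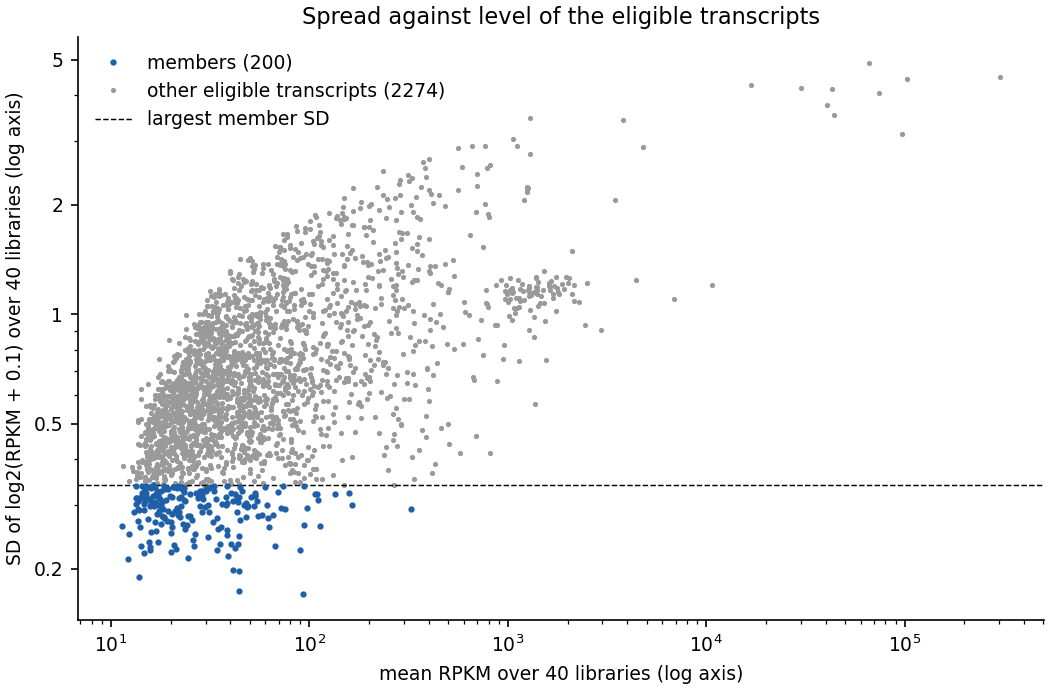
SD of log2(RPKM + 0.1) against mean RPKM over 40 libraries (both axes logarithmic) for the 2474 eligible transcripts, members in blue. The members fill the lower edge below an SD of 0.34 and lie between 11.3 and 325.8 RPKM.

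Members were longer than other eligible transcripts, a property that the rule did not use directly. Their median length was 1836 bases, against 1366 bases in all eligible transcripts. The members made up 13.8% of the 618 longest eligible transcripts and 3.55% of the 620 shortest. Length and level jointly set the number of reads behind a value. A member had a median of 666 reads in its median library, against 776 reads in eligible transcripts, and the fewest reads of any member in any library were 19, in Y. Counting alone gave members a median SD of 0.08 on the log2 scale, against 0.07 in eligible transcripts.

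The variation that was left lay more between groups than between replicates. Of the sum of squares of a member over 40 libraries, a median of 62.7% lay between the 10 group means, against 82.1% in all eligible transcripts. This share went from 19.7% in SMED30027760 to 87.2% among members. The pooled SD within groups had a median of 0.20 in members and 0.30 in eligible transcripts. The difference between the highest and the lowest group mean of a member was 0.30 to 1.12 on the log2 scale, with a median of 0.77. It was below 1 in 187 of 200 members (93.5%) and in 300 of 2474 eligible transcripts (12.1%).

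Replicate spread itself followed a course through development. In Y, S2, S3, S4 and S5, the median SD among the 4 libraries of a group was 0.28, 0.20, 0.25, 0.18 and 0.14 in members. From S6 it was lower, at 0.08 in each of S6, S7 and S8. In adults it was 0.13 in SX and 0.16 in C4. Over all eligible transcripts the medians were 0.31 (Y), 0.39 (S2), 0.45 (S3), 0.33 (S4) and 0.23 (S5), then 0.10 (S6), 0.13 (S7), 0.10 (S8), 0.15 (SX) and 0.21 (C4). The median counting SD of members was 0.13 in Y, 0.10 in S2, S3 and S4, 0.06 in S5 and 0.04 to 0.05 in S6, S7, S8, SX and C4, so that the adults had the counting SD of S6 to S8 with a wider replicate spread. S2 and S3 libraries were made from 100 ng of RNA where the others used 500 ng. The part of read number and input in the replicate spread was not tested.

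**Figure D3:**
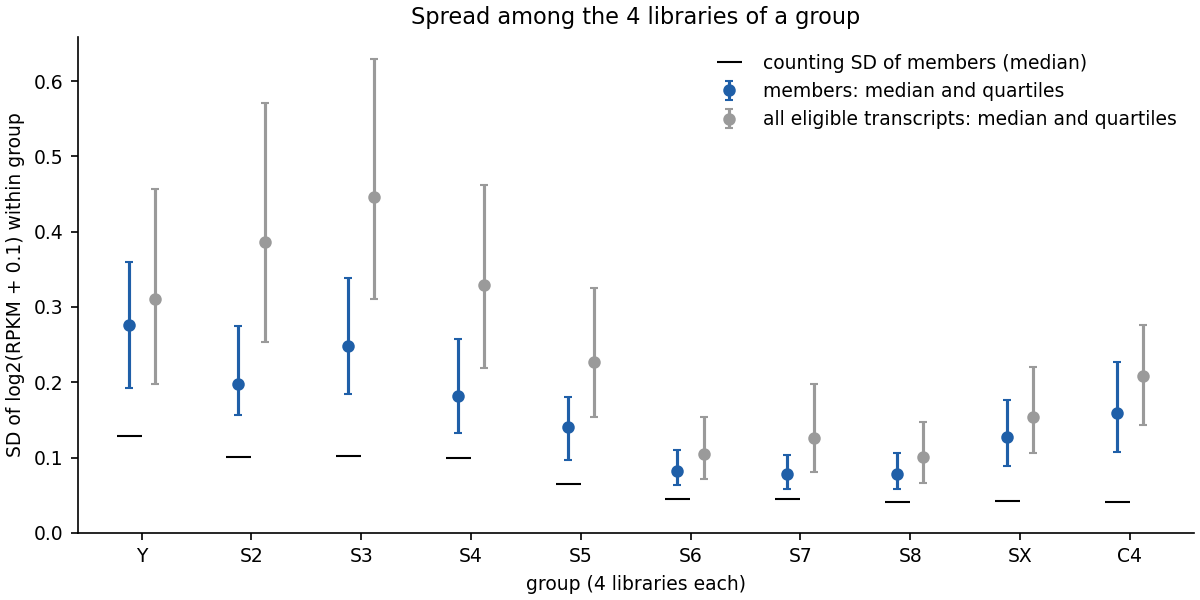
SD of log2(RPKM + 0.1) among the 4 libraries of each group (points: median; whiskers: quartiles) for members and for all eligible transcripts, with the median counting SD of members as black dashes. The member median is 0.28 in Y, 0.25 in S3 and 0.08 in S6, S7 and S8.

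Group means were highest most often in yolk. The highest group mean of a member was in Y for 62 of 200 members and in C4 for 49, followed by S5 with 26, S4 with 15 and S6 with 14, and it was in S7 or S8 for 4 each. The lowest was in SX for 31 members, Y for 27 and S8 for 25. In eligible transcripts the highest mean was in Y for 52.3%, in S5 for 12.6% and in C4 for 10.9%. Their lowest mean was in S8 for 22.4%, in SX for 20.4% and in Y for 10.4%. Member medians nevertheless stayed close together, from 22.0 RPKM in S8 to 26.3 RPKM in Y. The median member lay 0.17 above its own mean in Y on the log2 scale, 0.09 above in C4, 0.06 below in S8 and 0.07 below in SX, whereas the median eligible transcript lay 0.39 below in S8 and 0.63 above in Y.

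The members with the widest range of group means followed different courses. SMED30005945 had a mean RPKM of 19.05 ± 3.03 (Y), 25.0 ± 2.10 (S2), 20.1 ± 2.86 (S3), 16.5 ± 1.03 (S4), 11.5 ± 1.23 (S5), 14.6 ± 0.785 (S6), 15.3 ± 0.741 (S7) and 14.9 ± 0.338 (S8), each as mean ± SD with n = 4, so that all S2 libraries lay above all S5 libraries. It averaged 14.7 ± 2.70 RPKM in SX and 18.7 ± 1.08 RPKM in C4. SMED30024337 and SMED30004469 were instead lowest in Y and highest in S5. SMED30024337 measured 11.7, 11.6, 9.69 and 7.92 RPKM in Y, 23.2, 24.9, 18.8 and 19.5 RPKM at S5 and 13.6, 14.4, 13.3 and 13.6 RPKM at S8. SMED30021994 and SMED30004048 were highest in Y and lowest in S4. SMED30021994 measured 48.0, 32.9, 39.6 and 41.6 RPKM in Y, 16.4, 18.8, 18.2 and 23.4 RPKM in S4 and 30.3, 32.3, 31.98 and 32.4 RPKM at S6. In these 5 members the group means differed by 2.08-fold to 2.18-fold.

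No single course was shared by the members. The first 3 principal axes of the centred member values held 20.3%, 14.5% and 13.7% of the variation. Along the first, Y stood at 0.30, S2 at 0.06, S3 at 0.06 and S4 at 0.03, S5 at -0.08, S6, S7 and S8 each at -0.12, SX at -0.04 and C4 at 0.03 (log2 units, root mean square over members). The second set S2 (-0.19) and S3 (-0.14) apart from S5 (0.13), and the third S4 (0.14) and S5 (0.16) apart from SX (-0.12) and C4 (-0.21). Over the 40 libraries, which the members share, the correlation of 2 members had a median of 0.09 over 19900 pairs and ranged from -0.86 to 0.88.

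In a limma F test across the 10 groups at an adjusted p under 0.05, 183 of 200 members were called, or 91.5%, against 90.5% of the 33794 transcripts tested and 98.6% of the eligible transcripts. The members were chosen on these values, so the count is a description. It was 141 to 160 (70.5% to 80.0%) when a replicate number was left out of every group, against 85.2% to 87.2% of all transcripts tested.

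S2 embryos were set against Y, the yolk from capsules with no visible embryo. The Y capsules were older than those of S2, and the S2 libraries were made from less RNA. Embryo against yolk, capsule age and RNA input therefore cannot be told apart in this contrast. Of the members, 64 were called (22.1% of all transcripts tested), 10 higher (15.6% of all) and 54 lower (6.45% of all) in S2. Of the eligible transcripts, 49.9% were called, 7.44% higher and 42.5% lower, against 32%, 5% and 27% of members. The member log2 fold change had a median of -0.16 and ran from -0.95 to 0.81, and 0 members exceeded 1 in size, against 640 of 2474 eligible transcripts. SMED30034812 measured 39.3, 37.9, 49.8 and 57.1 RPKM in S2, against 79.7, 95.5, 70.9 and 93.3 RPKM in Y. Its log2 fold change was -0.89 (standard error 0.12). SMED30032506 measured 22.1, 18.7, 22.7 and 25.6 RPKM in S2, against 40.5, 59.5, 34.3 and 41.4 RPKM in Y, a log2 fold change of -0.95 (standard error 0.15). In the other direction, SMED30019007 measured 17.6, 19.9, 21.9 and 17.4 RPKM in S2, against 12.1, 8.07, 13.5 and 10.5 RPKM in Y (log2 fold change 0.81, standard error 0.18), and SMED30011524 averaged 61.6 ± 13.3 RPKM in S2, against 38.8 ± 5.04 RPKM in Y (log2 fold change 0.65, standard error 0.16). In each of these 4 members the S2 libraries did not overlap those of Y. All were named for the size of their fold change, so this is a description. How often it held over all transcripts was not counted. Without S2 replicate 4, 75 members were called (26.2% of all transcripts tested). Without the scaling factors described below, 188 were called (29.2% of all), all higher in S2. With a fit on these 2 groups alone 17 were called, or 8.5% of members against 7.24% of all. The median of all transcripts moved too, from 0.29 as deposited to 0.64 without the factors and -0.24 after quantile normalization.

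S6 embryos were set against S5, when the temporary organs give way to definitive ones. Here 19 members were called (22.0% of all transcripts tested), 7 higher (15.5% of all) and 12 lower (6.52% of all) in S6. Of the eligible transcripts, 34.7% were called, 2.79% higher and 31.9% lower, against 9.5%, 3.5% and 6.0% of members. The median member log2 fold change was -0.04, from -0.53 to 0.61. SMED30034849 measured 61.5, 61.9, 54.5 and 64.1 RPKM in S6, against 31.0, 36.2, 50.5 and 43.0 RPKM in S5 (log2 fold change 0.61, standard error 0.20). SMED30024997 averaged 17.0 ± 0.473 RPKM in S6 and 12.05 ± 2.61 RPKM in S5. SMED30000130 measured 47.5, 44.5, 41.7 and 45.5 RPKM in S6, against 67.4, 70.0, 56.4 and 66.0 RPKM in S5 (log2 fold change -0.53, standard error 0.15). SMED30034232 averaged 15.3 ± 0.471 RPKM in S6 and 22.0 ± 2.90 RPKM in S5. In each of these 4 members the S6 libraries did not overlap those of S5. They were named for the size of their fold change, so this is a description. Its frequency over all transcripts was not counted. The count was 9 without S5 replicate 1, 8 without S5 replicate 2, 12 without S6 replicate 1, 2 or 3, and 8 without S6 replicate 4. It was 52 in a fit on these groups alone, 47 after quantile normalization and 128 without the scaling factors, all higher in S6 in the last 2 cases. The median of all transcripts was 0.20 as deposited, -0.10 after quantile normalization and 0.75 without the factors.

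SX adults, which carry a reproductive system, were set against asexual C4 adults. Here 59 members were called (26.4% of all transcripts tested), 8 higher (14.8% of all) and 51 lower (11.6% of all) in SX. Of the eligible transcripts, 24.2% were called, 3.68% higher and 20.5% lower, against 29.5%, 4.0% and 25.5% of members. SMED30009709 measured 24.1, 29.1, 28.4 and 28.0 RPKM in SX, against 13.1, 11.5, 14.7 and 15.03 RPKM in C4, a log2 fold change of 1.01 (standard error 0.15) and the 1 member over 1 in size. SMED30014456 measured 47.5, 35.5, 51.2 and 54.3 RPKM in SX, against 26.2, 33.3, 25.3 and 22.9 RPKM in C4 (log2 fold change 0.80, standard error 0.16). SMED30016306 measured 9.49, 10.5, 10.8 and 10.4 RPKM in SX, against 20.4, 20.2, 17.6 and 20.6 RPKM in C4 (log2 fold change -0.93, standard error 0.19). SMED30035087 averaged 20.5 ± 2.39 RPKM in SX and 35.5 ± 2.497 RPKM in C4 (SD, n = 4 each). The groups did not overlap in these 4 members, which were also named for the size of their fold change. How often this held over all transcripts was not counted. The median member log2 fold change was -0.18, and that of all transcripts was 0 as deposited, 0.05 without the scaling factors and -0.23 after quantile normalization. The count was 39 without SX replicate 2 (22.7% of all transcripts called). Without the scaling factors it was 13, of which 6 were higher, beside 28.8% of all transcripts called.

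The constancy of the members is relative to the scale of the deposited values. Each library size there carries a TMM factor (trimmed mean of M values), which sets libraries level on the transcripts they have in common and divides the RPKM. Rebuilt from the values, the factor was 0.245 ± 0.0391 (Y), 0.641 ± 0.227 (S2), 0.607 ± 0.167 (S3), 0.592 ± 0.199 (S4), 1.03 ± 0.240 (S5), 1.75 ± 0.207 (S6), 1.78 ± 0.240 (S7), 2.07 ± 0.0508 (S8), 1.83 ± 0.126 (SX) and 1.73 ± 0.150 (C4), as mean ± SD with n = 4. The share of reads on the 200 members is computed without the factor. Because the members were chosen to be level after division by the factor, their share is bound to follow it and is given as a description. The share was lowest in Y and highest in S8. It was 0.362 ± 0.0416% (Y), 0.831 ± 0.254% (S2), 0.788 ± 0.227% (S3), 0.767 ± 0.223% (S4), 1.34 ± 0.340% (S5), 2.22 ± 0.260% (S6), 2.21 ± 0.296% (S7), 2.56 ± 0.0232% (S8), 2.22 ± 0.0536% (SX) and 2.41 ± 0.0488% (C4). The highest Y library, at 0.412%, lay below all libraries of the other groups, of which an S3 library at 0.490% was the lowest. The highest library of S2 to S5, at 1.64%, lay below all libraries of S6 to S8 and of the adults, of which an S7 library at 1.84% was the lowest.

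**Figure D4:**
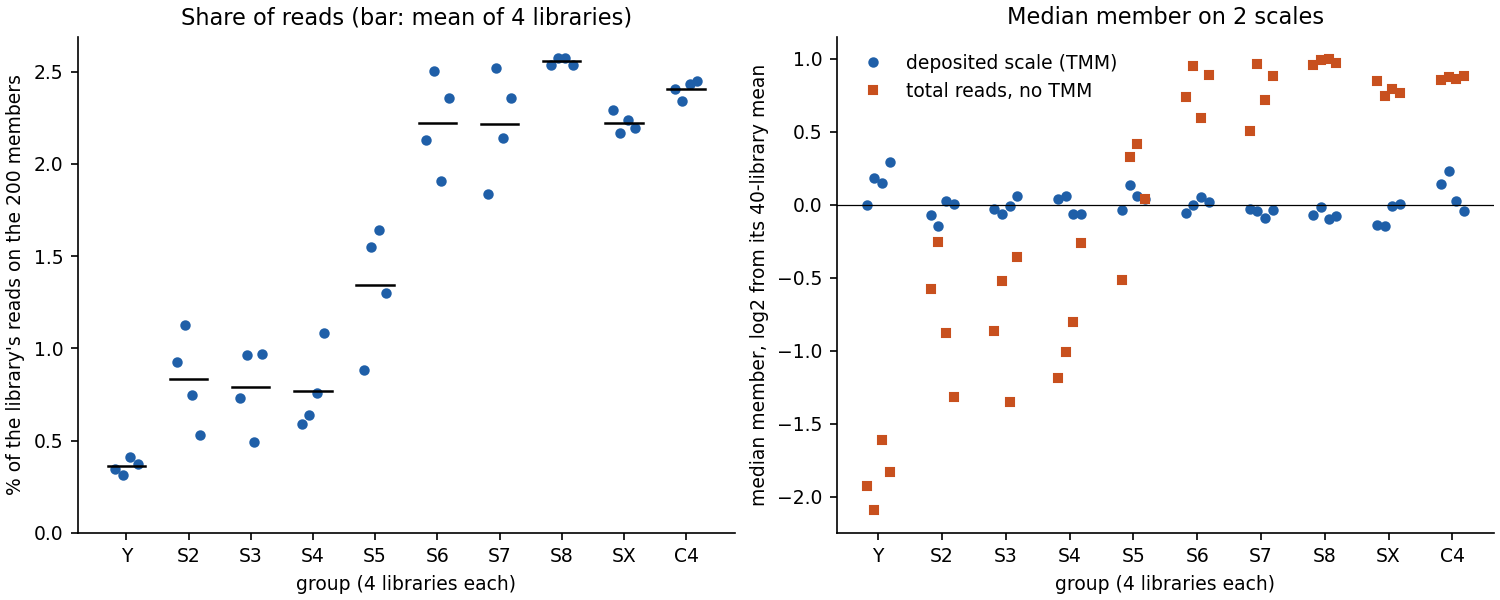
Left, percent of each library's reads on the 200 members, with the group mean as a bar; right, log2 distance of the median member from its own mean over 40 libraries, on the deposited scale (circles) and on RPKM by total reads (squares). The share averages 2.56% in S8 and 0.362% in Y, and only the circles, on the scale used to choose the members, stay near 0.

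On RPKM computed from total reads without the factor, the median member was at 45.6 RPKM in S8 and 6.46 RPKM in Y, and the median difference of S8 minus Y was 2.81 on the log2 scale, against -0.25 on the deposited scale. The median SD of the members was then 1.03, and 62 of them still averaged at least 10 RPKM in every group. Of the 200 transcripts that the same rule chose on that scale, 0 were members. Those transcripts had a median SD of 0.33 on their own scale and 1.04 on the deposited scale, and took 4.36% of reads in S8 and 3.74% in Y. Which transcripts count as the most constant therefore depended on the scaling, and the values hold no external standard by which to choose between the scales.

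Ratios of members within a library do not carry the factor. Over the 40 libraries, the log2 ratio of 2 members had a median SD of 0.39 over all pairs, and of 0.26 (0.20 to 0.34) over pairs of the 10 members with the lowest SD. The median was 0.84 over pairs of eligible transcripts and 0.42 over pairs of the 200 transcripts chosen without the factor. The rule used these values as well, so the difference from eligible transcripts is a description.

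Other settings of the rule changed the list less. Of the 200 members, 195 and 197 were chosen again with pseudocounts of 1 and 0.01 RPKM, 171 by the coefficient of variation, 163 by the SD of the 10 group means, 147 without yolk and 148 without adults. Leaving out 1 library at a time kept 184 to 199. A minimum of 50 RPKM, which 422 transcripts met, kept 17 members, and a minimum of 1 RPKM, which 7968 met, kept 100. The upper quartile of the member means was 41.3 RPKM, so most members fell short of 50 RPKM by their level. After quantile normalization 71 were chosen again, and 32 when the median of the eligible transcripts was subtracted in each library. All 10 members with the lowest SD were chosen again with both pseudocounts, without yolk and without adults, and 6 of them after quantile normalization. Without TMM, or with the median of eligible transcripts subtracted, 0 were chosen. At a minimum of 50 RPKM 1 was chosen, SMED30019896, as the others averaged less than that.

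**Figure D5:**
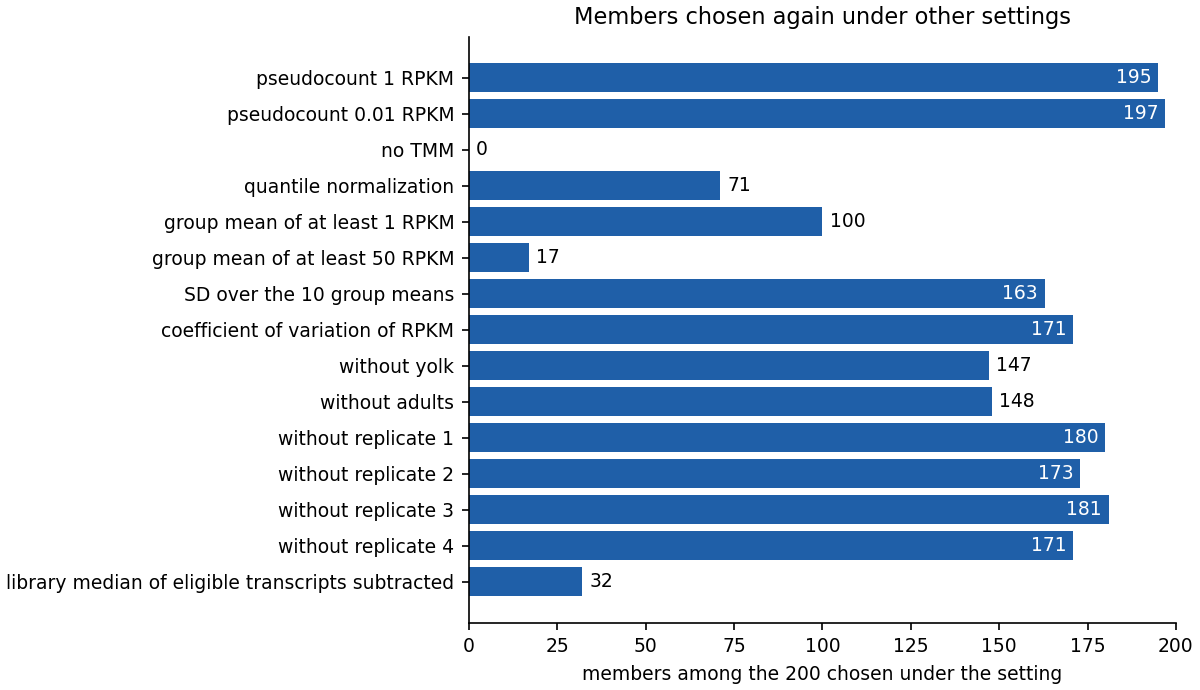
Number of the 200 members chosen again (horizontal axis) under each setting of the rule. It is 195 with a pseudocount of 1 RPKM, 71 after quantile normalization and 0 without TMM.

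The listed stem cell and stage transcripts that were eligible were few, and the members make up 8.08% of all eligible transcripts. A count of 0 members in a single short list is close to that share and is given as a description. Of the neoblast-enriched transcripts, a list that the study took from other experiments, 22 were eligible and 0 were members. Their lowest SD was 0.64, at rank 1262 of 2474, and their median was 0.95. Of the transcripts listed for the zeta, gamma and sigma classes of neoblasts, 4, 9 and 3 were eligible and 0 were members. Lists of transcripts enriched at a stage, which the study chose on these same libraries, held 2 to 15 eligible transcripts each and 0 members. A transcript on such a list differs between groups by that choice, so 0 members there was largely fixed in advance. Some eligible transcripts with familiar names are given beside the members. The actin, cyclophilin A and ribosomal protein S5 transcripts below are on the study's list for S2, chosen on these same libraries. Their large SDs are bound to that choice. The actin transcript SMED30009076, which encodes a protein of the cytoskeleton, averaged 102 RPKM in Y, 2270 in S2 and 2875 in S8 (SD 1.49). Another actin transcript, SMED30030289, averaged 426 RPKM in Y, 4230 in S2 and 119 in S8 (SD 2.20). The transcript of cyclophilin A (SMED30006388), a protein folding enzyme, averaged 11.7 RPKM in Y, 502 in S4 and 42.5 in S8 (SD 1.76), and that of ribosomal protein S5 (SMED30008485), part of the small ribosomal subunit, 77.9 in Y, 677 in S2 and 31.0 in S8 (SD 1.84). The stem cell transcript piwi-1 (SMED30007406) averaged 115 RPKM in Y, 612 in S5 and 134 in S8 (SD 1.11). Among the described eligible transcripts pbx-1 (SMED30027299) had the lowest SD, 0.49, at rank 736. These names come from lists of enriched transcripts, so they are not a sample of all eligible transcripts.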

How the data were processed

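RNA was measured in 40 samples of 10 groups. The authors mapped reads to a transcriptome assembly with Bowtie (CASAVA 1.8.2 is also named in the submitters' processing notes), allowing a read several matches, so near-identical transcripts may share reads. The authors removed 16S rRNA and deposited RPKM values on library sizes that the authors scaled by TMM in edgeR. Columns left out numbered 0, and 0 of 3 rRNA transcripts were listed. Members and lists were chosen with earlier results of these data known.

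Lengths and whole reads were rebuilt from the steps of the RPKM values (100% whole within 0.001 reads, known lengths equal for 3782 of 3782). Counting SD is the root mean reciprocal read number on the log2 scale. Fits used limma 3.58.1 in R 4.3.3 (eBayes with a trend) on log2(RPKM + 0.1), for 33794 transcripts summing to at least 1 RPKM, all 200 members included, with Benjamini-Hochberg adjustment. S2 against Y and S6 against S5 came from the 32 yolk and embryo samples, the others from all 40. The fit was tested on simulated data. Named members are the 10 with the lowest SD, the 5 with the widest range of group means, 3 each of highest and lowest level and at each side of the threshold, and 2 per contrast and direction. Alternatives were other pseudocounts, filters, scalings and level limits, subsets of groups, a replicate block and left-out libraries, and a count was taken as changed beyond 1.5 times. Tables used Python 3.11.15, pandas 2.3.3 and numpy 2.4.6.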

Additional observations from a re-analysis of the deposited data

Results flagged for a closer look

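The RPKM of the 10 members with the lowest SD, the share of reads on members and the median member were searched for a library far from the other 3 of its group, in 120 groups of 4. Chance flags about 1 in 20 groups, and 4 were found. SMED30011670 measured 49.1 RPKM in its highest S4 library, with the others at 39.4 to 41.0. SMED30022597 measured 17.1 RPKM in its lowest S4 library, with the others at 20.7 to 21.1. SMED30010394 measured 38.5 RPKM in its lowest S6 library, with the others at 45.8 to 47.3, and 47.8 RPKM in its highest S7 library, with the others at 44.7 to 45.1. No library was singled out by the share of reads or by the median member.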

How the results depend on the processing

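Without TMM, 0 members were chosen again, the median SD of members was 1.03 and the share of their variance between groups 91.5%; quantile normalization gave 71, 0.34 and 77.4%, and subtracting the median of eligible transcripts, added after the values were seen, 32, 0.41 and 81.2%. Group minimums of 1 and 50 RPKM kept 100 and 17. Without yolk the median SD was 0.27. The transcripts chosen without TMM took 4.36% of reads in S8 and 3.74% in Y. Called members numbered 188 without TMM and 17 in a fit on 2 groups for S2 against Y, 128 without TMM, 47 after quantile normalization and 52 on 2 groups for S6 against S5, and 13 without TMM for SX against C4. Without TMM the log2 fold change turned to 0.37 in SMED30032506 and 0.43 in SMED30034812 (S2 against Y) and to 0.25 in SMED30000130 and 0.27 in SMED30034232 (S6 against S5). These changes follow from the rescaling itself. Another 3 fold changes of named members missed the threshold after quantile normalization and 1 in a fit on 2 groups, and 96 kept direction and call. Of the summary values, 38 stayed within 1.5 times (counts) or 1 standard error or SD, and 20 moved further. The SDs of the named transcripts had a median of 1.05 without TMM and 0.38 after quantile normalization.

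With replicates left out, members chosen again ranged from 171 to 199, the median SD from 0.288 to 0.304 and the share between groups from 64.9% to 69.6%. Reads on members ranged from 2.55% to 2.56% in S8 and from 0.345% to 0.378% in Y. Called members ranged from 141 to 160 across groups (85.2% to 87.2% of all transcripts called) and from 49 to 75 for S2 against Y (16.5% to 26.2%). They ranged from 8 to 21 for S6 against S5 (15.5% to 23.1%) and from 39 to 54 for SX against C4 (22.6% to 24.4%). In these refits 88 fold changes of named members kept direction and call. Another 8 missed the threshold, all in S6 against S5. A replicate block gave 178, 64, 18 and 54 called members in the same order, beside 90.5%, 22.1%, 21.8% and 26.1% of all transcripts. Groups other than SX shared lanes, but whether replicate numbers follow lanes is not stated. Deviations of same-numbered samples correlated between -0.07 and 0.03 in these 3 comparisons, and 0, 1 and 0 of 8 samples correlated best with their own number. SX shared no lane with C4, so that comparison cannot show pairing by lane. Over the 9 groups other than SX, deviations correlated at 0.005 on average for same-numbered samples and at -0.002 for differently numbered ones. A median member had a counting SD of 0.10 to 0.13 per library in Y to S4, and shifts below that in 1 library were not detectable at this depth.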
